A study of Mus musculus with 7 samples.

Results

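Vascular endothelial cells line the blood vessels of the mammary gland, and the 1819 cells that carried this name in the deposited metadata, of 13684 cells in all, are described here. Single-cell RNA was profiled from dissociated abdominal mammary glands, freed of lymph nodes, of 3 young (3 to 4 months) and 4 aged (13 to 14 months) mice. The mice were untreated virgin females sampled in diestrus, their background was a mix of FVB, 129 and C57BL/6J, and each gave 1 library. Young A, B and C contributed 409, 378 and 145 vascular endothelial cells, and Aged A, B, C and D contributed 171, 285, 183 and 248. The name rests on the clusters and markers of the study, so the genes that mark the cells are given as a description, and the tests concern the difference between the age groups. The labels name no batch or processing date, so any difference in handling between young and aged libraries cannot be told apart from age.

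Endothelium differs along the vessel bed. Capillary endothelium in fat-rich tissue binds lipoprotein lipase on its surface and takes up fatty acids, whereas venular endothelium displays selectins and adhesion molecules through which leukocytes leave the blood, and arterial endothelium relies on Notch signaling. Quiescent endothelium also builds the basement membrane, sets vascular tone and restrains clotting, and inflammatory signals acting through NF-kB switch on adhesion molecules.

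Counts of unique molecular identifiers (UMIs, 1 per captured mRNA molecule) were summed over the vascular endothelial cells of each mouse, giving 727600 to 2058371 UMIs per mouse, and the mouse was the replicate. The median depth per cell ran from 4421 to 4740 UMIs in young mice and from 4805 to 5736.5 in aged mice. The ranges did not overlap, and the difference of the means gave p = 0.114 in a two-sided exact permutation test. Of these cells, 30 shared their barcode with a cell of another library. At least 2 UMIs of the markers of another cell type were present in 863 cells (47.4%), and results are also given without them where that matters.

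The marker genes fitted the name. Pecam1, which encodes the adhesion receptor CD31, reached 695 ± 87.3 CPM (counts scaled to the same library total; SD, n = 7 mice), and Cdh5, the endothelial cadherin, 524 ± 177. The co-receptor for TGF-beta ligands Eng reached 404 ± 28.6 and the transcription factor Sox17 reached 261 ± 147. Pericytes were the next highest type for each of these markers, with 501, 325, 281 and 135 CPM, while luminal cells, fibroblasts and myoepithelial cells all lay below 32 CPM. The cells labelled pericytes thus carried endothelial RNA as well as 788 CPM of the pericyte gene Rgs5, against 90.9 CPM of Rgs5 in vascular endothelial cells. In pericytes Pecam1 averaged 659 CPM in young and 382 CPM in aged mice, and Cdh5 473 and 213 CPM. The pooled young and aged vascular endothelial cells held 615 and 731 CPM of Pecam1.

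Among 2361 genes with at least 50 CPM in vascular endothelial cells, 361 were highest there of the 13 cell types, and 36 exceeded the next type by at least 2-fold. Pericytes were the next type for 209 of the 361 and lymphatic endothelial cells for 56. The genes that stood furthest above the next type included Cytl1, a secreted cytokine-like protein (48.3-fold), Ackr1, the chemokine-binding receptor of venules (6.96-fold), Sele, which encodes E-selectin (4.22-fold), and the water channel Aqp1 (3.51-fold). Cytl1 spanned 5.99 to 1335 CPM over the mice, whereas Aqp1 spanned 1428 to 2844 CPM. The folds average over young and aged mice. In young mice Sele averaged 34.7 CPM against 54.1 CPM in pericytes, and Ackr1 320 CPM against 236 CPM. In aged mice Sele averaged 315 CPM against 40.3 CPM, and Ackr1 1978 CPM against 142 CPM.

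The marker genes did not all move together with age. In CPM after scaling of the libraries by the trimmed mean of M-values (TMM), Sox17 was 364, 347 and 388 in young mice and 140, 139, 208 and 166 in aged mice. Sox17 fell by 1.17 on the log2 scale (SE 0.16; edgeR quasi-likelihood test, adjusted p = 0.000127), with every aged mouse below every young mouse. Pecam1 was 472, 572 and 653 in young mice and 903, 845, 798 and 766 in aged mice, a log2 difference of 0.55 ± 0.14 that passed the test of significance (adjusted p = 0.0112) but stayed short of the 1.5-fold minimum. Cdh5 (log2 difference -0.52, adjusted p = 0.0135) also stayed short of it, and Eng did not pass the test (0.25, adjusted p = 0.182).

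To follow genes of the vessel types within the population, each cell was thinned to 2000 UMIs and counted as carrying a gene set when it held at least 2 UMIs of its 4 genes. The capillary set was Gpihbp1, Car4, Cd300lg and Btnl9, the venular set Ackr1, Selp, Vwf and Lrg1, and the arterial set Gja4, Gja5, Sema3g and Stmn2. Capillary-set UMIs were found in 78.0%, 84.4% and 78.6% of the cells of the young mice and in 24.6%, 17.2%, 18.03% and 22.2% of those of the aged mice. Venular-set UMIs were found in 33.7%, 27.8% and 30.3% of young cells and in 88.9%, 84.2%, 83.6% and 87.5% of aged cells. The balance of the population thus lay with capillary genes in each young mouse and with venular genes in each aged mouse.

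The share with capillary UMIs averaged 80.3% ± 3.53 in the 3 young mice and 20.5% ± 3.48 in the 4 aged mice (± SD), a difference of -59.8 percentage points. The share with venular UMIs was 30.6% ± 2.99 in young and 86.1% ± 2.55 in aged mice, a difference of 55.4 percentage points. Each difference gave p = 0.0286 in an exact two-sided permutation test over the 35 divisions of 7 mice, the smallest p this design allows, and p = 0.0429 after Benjamini-Hochberg adjustment over the 3 sets. The sets were chosen with earlier results of these same mice known, and these p-values do not account for that choice. The level of the aged capillary share depended on the UMI minimum, at 34.4% to 51.5% without thinning, 40.4% to 45.9% with at least 1 UMI and 5.96% to 8.87% with at least 4 UMIs, with differences of -43.1, -42.8 and -61.3 percentage points. The arterial share was 5.38%, 5.82% and 2.76% in young mice and 5.26%, 14.0%, 15.3% and 9.27% in aged mice. Aged A lay within the young range, and the arterial difference did not pass the exact permutation test (p = 0.114).

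Capillary UMIs without venular UMIs were seen in 64.5% to 69.8% of young cells but in 4.92% to 7.02% of aged cells. Venular UMIs without capillary UMIs were seen in 13.2% to 20.3% of young and 70.5% to 73.3% of aged cells. The cells that carried both made up 10.9% to 17.5% of each mouse's cells in either age group. Across single cells, which share a library, the UMIs of the capillary and venular sets had a Spearman correlation of -0.69, -0.60 and -0.60 in the young mice and of -0.24 to 0.04 in the aged mice.

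The same sets were counted in other cell types. In hormone-sensing luminal cells, whose median depth was 6588 to 9616.5 UMIs against 4421 to 5736.5 in vascular endothelial cells, 0% to 1.05% carried the capillary set and 0% to 3.26% the venular set. In fibroblasts the capillary set was present in 1.93% to 7.57% of young cells and in 0% of aged cells, which number 15 to 121 per mouse. In alveolar luminal cells the venular set was present in 4.17% to 18.6% of cells. The venular-set gene Lrg1 averaged 229 CPM in young and 245 CPM in aged alveolar cells, whereas Ackr1, Selp and Vwf each averaged at most 8.97 CPM. This share is therefore not a measure of background for the venular set. Pericytes, which carried endothelial RNA, held both sets: the capillary set was present in 31.4% to 46.5% of young and 4.17% to 39.3% of aged pericytes, and the venular set in 35.9% to 58.7% of young and 12.5% to 42.9% of aged pericytes. The venular share of pericytes was below that of every young mouse in 3 of 4 aged mice, against the direction in vascular endothelial cells.

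**Figure D1:**
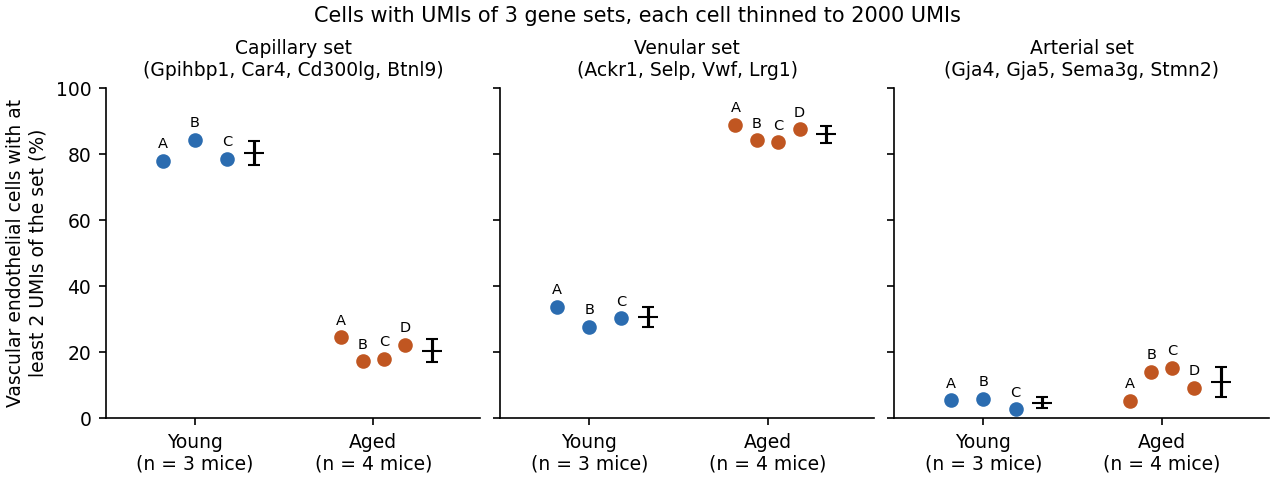
Percentage of vascular endothelial cells of each mouse (lettered points, blue young and orange aged) with at least 2 UMIs of the capillary, venular or arterial gene set after thinning each cell to 2000 UMIs; black bars give the mean ± SD over mice. Capillary shares lie between 78.0% and 84.4% in young and between 17.2% and 24.6% in aged mice, venular shares the other way round, and arterial shares of the groups overlap.

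Across all 7861 genes tested, 1151 rose (14.6%) and 936 fell (11.9%) with age at an adjusted p under 0.05 and at least 1.5-fold, and the values of the age groups did not overlap for 36.8% of the genes. The median log2 difference over all genes tested was -0.05. These shares are the background against which the counts of each gene list are read, and the lists themselves were chosen with earlier results of these data known.

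Genes of lipid uptake and handling were lower in aged mice. Of 18 tested members, 13 fell and 0 rose, with a median log2 difference of -1.60. Gpihbp1, the anchor that holds lipoprotein lipase on the capillary wall, was 2435, 2595 and 1817 CPM in young mice and 277, 194, 205 and 349 CPM in aged mice. It fell by 3.15 on the log2 scale (SE 0.21; adjusted p = 7.24e-07). Lpl, which encodes the lipase, was 283, 278 and 236 CPM in young mice and 13.3, 18.6, 14.9 and 26.4 CPM in aged mice, and fell by 3.82 (SE 0.20; adjusted p = 1.5e-07).

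Neither gene had overlapping values, and the glycerol channel Aqp7 (log2 difference -3.05) and the lipase inhibitor Angptl4 (-2.58) fell as well. The 5 tested members that were not called were Scarb1, Slc27a3, Lipe, Pnpla2 and Pltp, whose log2 differences lay between -0.58 and 0.28. The share of UMIs from 7 adipocyte genes moved with this list, at 0.0781%, 0.107% and 0.0513% in young and 0.00307% to 0.00432% in aged vascular endothelial cells. When the 713 cells with any adipocyte UMI were left out, 11 of 17 tested members fell, and the log2 difference was -3.41 for Gpihbp1 and -3.88 for Lpl. This removed 51.0% to 71.4% of the cells of each young mouse but 7.6% to 19.0% of those of each aged mouse. The cells kept are thus selected unequally in the age groups, which limits every comparison that leaves these cells out.

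Of 10 capillary genes, 7 fell and 0 rose, with a median log2 difference of -1.68. Car4, a carbonic anhydrase of the capillary surface, was 400, 408 and 238 CPM in young mice and 54.2, 60.9, 46.6 and 41.5 CPM in aged mice (log2 difference -2.79 ± 0.21, adjusted p = 1.36e-06). Without the cells with adipocyte UMIs the difference of Car4 was -1.42. The butyrophilin-like gene Btnl9 fell by 3.79, the protease inhibitor Timp4 by 3.2 and the potassium channel Kcna5 by 2.94. The capillary genes Ly6c1, Aqp1 and Tmem252 were not called, with log2 differences of -0.53, -0.01 and 0.11. The sets used for the shares of cells draw on these genes and on the venular genes below, so the shares and the levels are not independent.

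Venular and leukocyte adhesion genes moved the other way, with 12 of 14 tested members higher and 0 lower and a median log2 difference of 2.44. Ackr1 was 319, 249 and 275 CPM in young mice and 2859, 1940, 1656 and 2479 CPM in aged mice. It rose by a log2 difference of 2.99 ± 0.20 (adjusted p = 7.99e-07), and every aged mouse stood above every young mouse. Vcam1, the vascular adhesion molecule for lymphocytes and monocytes, was 82.9, 55.0 and 96.8 CPM in young mice and 732, 605, 349 and 607 CPM in aged mice (2.90 ± 0.26, adjusted p = 5.92e-06).

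Sele was 44.1, 23.4 and 23.6 CPM in young mice and 307, 412, 337 and 357 CPM in aged mice, with a log2 difference of 3.49. Cytl1 had the widest spread of the list, at 57.3, 5.36 and 21.1 CPM in young mice and 1152, 1420, 405 and 679 CPM in aged mice, with a log2 difference of 4.96, or 6.39 without Young A. Icam2 and Ephb4 were the members not called, at -0.10 and -0.14. Without the cells with adipocyte UMIs 11 of 14 members rose, with log2 differences of 1.93 for Ackr1, 1.94 for Vcam1 and 2.43 for Sele.

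**Figure D2:**
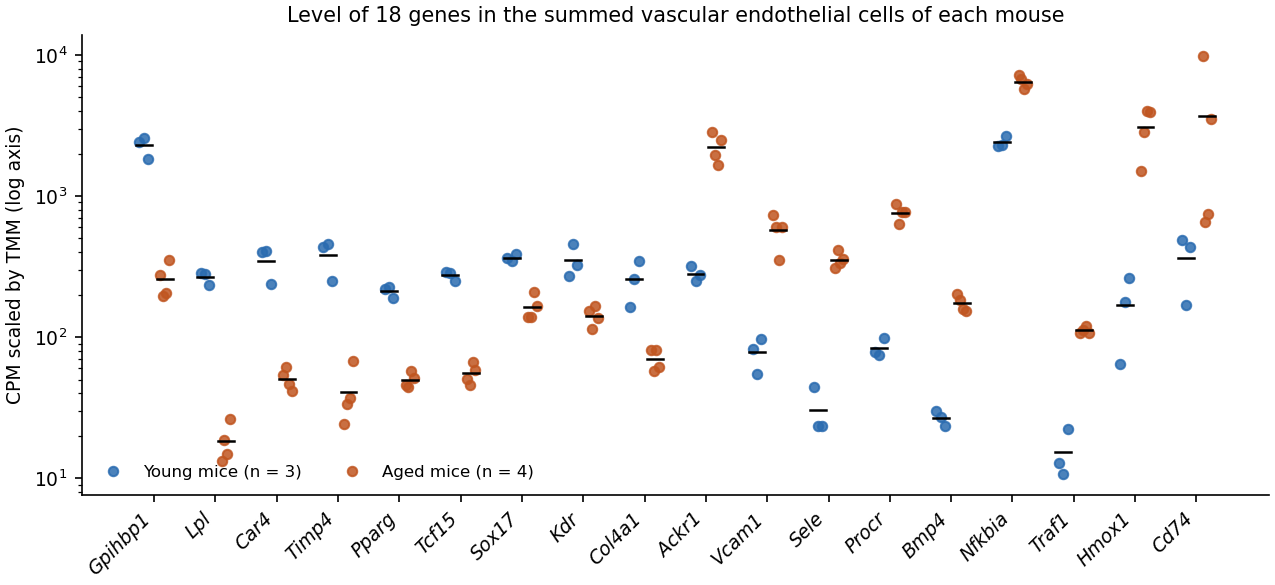
Level of 18 genes in the vascular endothelial cells of each mouse, in CPM scaled by TMM on a log axis; blue points are young mice, orange points aged mice and black lines group means. Capillary, lipid and basement membrane genes such as Gpihbp1 and Col4a1 are lower in all aged mice, venular genes such as Ackr1 and Vcam1 are higher in all of them, and Aged A stands highest for Cd74.

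Arterial genes did not move as a group: of 14, 6 rose and 5 fell. Gja4, a gap junction gene of arteries, was 15.7, 17.5 and 13.6 CPM in young mice and 9.64, 80.2, 202 and 43.8 CPM in aged mice. Aged A was below all young mice and Aged C was highest, the log2 difference was 2.40 ± 0.65 (adjusted p = 0.0142), and it was not called without Young A (2.38) or without the cells with adipocyte UMIs (1.69), while the value was 1.55 without Aged C. The matrix inhibitor of calcification Mgp (log2 difference 3.00, and 4.01 without Young A) and the kinase gene Bmx (2.93) rose, while the netrin receptor gene Unc5b fell by 2.75, or by 3.35 without Aged D.

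Of 12 tested genes of angiogenic growth, 7 rose and 3 fell. Nrp1, a co-receptor for vascular endothelial growth factor, was 505, 574 and 491 CPM in young mice and 142, 216, 214 and 185 CPM in aged mice, and fell by 1.46 (SE 0.16; adjusted p = 2.43e-05). Bmp4, which encodes a bone morphogenetic protein, was 29.7, 27.3 and 23.6 CPM in young mice and 202, 183, 159 and 152 CPM in aged mice, and rose (2.66 ± 0.18, adjusted p = 7.24e-07).

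The growth factor gene Pgf was 59.8, 29.2 and 159 CPM in young mice and 8.44, 21.5, 5.95 and 8.30 CPM in aged mice, a fall of 2.73 that shrank to 1.94 without Young C (log2 difference -1.94). Kcne3, a potassium channel subunit, was at most 1.24 CPM in young mice and 1.21 to 18.8 CPM in aged mice. Of the angiogenic genes, 1 of 10 tested was higher without the cells with adipocyte UMIs and 3 of 10 without the cells with markers of another type. Calls in either direction over all genes fell in these fits too, from 2087 to 1236 and 1555.

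Pan-endothelial genes were split, with 3 of 20 higher and 6 lower, beside 14.6% higher and 11.9% lower over all genes tested. Kdr, the main receptor for vascular endothelial growth factor, was 271, 456 and 323 CPM in young mice and 152, 114, 167 and 136 CPM in aged mice, and fell by 1.31 (SE 0.19; adjusted p = 0.000208). The sialomucin gene Emcn rose from 352, 406 and 341 CPM to 698, 786, 593 and 709 CPM (0.92 ± 0.14, adjusted p = 0.000351), and the C-type lectin gene Clec14a rose by a log2 difference of 0.96. The remaining 11 were not called.

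Among 24 endothelial transcription factors, 4 rose and 5 fell, beside 14.6% and 11.9% of all genes tested. Tcf15, known from capillary endothelium of fat and heart, was 290, 284 and 249 CPM in young mice and 50.6, 46.1, 66.4 and 58.9 CPM in aged mice, and fell by 2.31 (SE 0.16; adjusted p = 7.86e-07). Pparg, the lipid-sensing nuclear receptor, was 219, 225 and 189 CPM in young mice and 45.8, 44.6, 57.5 and 51.3 CPM in aged mice, and fell by 2.09 (SE 0.15; adjusted p = 1.19e-06). Both genes had separate groups. Sox18 fell by 1.77, a call that was lost without Young B (-1.38). Meox1, a homeobox gene, rose by a log2 difference of 2.10, and Erg, which maintains endothelial identity, was not called (-0.13).

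Basement membrane genes were mostly lower, with 11 of 16 lower and 2 higher and a median log2 difference of -1.13. Col4a1, a chain of the collagen network under the endothelium, was 164, 257 and 347 CPM in young mice and 80.7, 57.2, 80.3 and 61.1 CPM in aged mice (log2 difference -1.87 ± 0.23, adjusted p = 6.21e-05). Its partner Col4a2 fell by 1.99 and the laminin gene Lama4 by 1.87. Col18a1, the precursor of endostatin, went the other way, from 11.5, 8.76 and 13.6 CPM to 45.8, 45.3, 53.5 and 61.1 CPM (2.23 ± 0.23, adjusted p = 1.6e-05).

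Genes of vascular tone and hemostasis were mostly higher, with 10 of 15 tested members higher and 2 lower. Procr, the endothelial receptor of protein C in the anticoagulant pathway, was 78.3, 75.0 and 99.3 CPM in young mice and 882, 634, 769 and 769 CPM in aged mice. It rose by a log2 difference of 3.2 ± 0.17 (adjusted p = 1.8e-07). The cyclooxygenase gene Ptgs1 rose by 1.93, from 37.98 to 53.4 CPM to 155 to 188 CPM. The prostacyclin synthase gene Ptgis rose by 2.48 but lay at 11.1 CPM or less in every mouse, with values of 3.44 without Young A and 1.80 without Young B. The endothelin receptor gene Ednrb fell by 2.61, and Nos3, the endothelial nitric oxide synthase, was not called (-0.26, adjusted p = 0.40).

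The 17 genes of the NF-kB list all rose, with a median log2 difference of 1.58, against 14.6% of all genes tested. Nfkbia, the inhibitor that NF-kB itself induces, was 2275, 2318 and 2665 CPM in young mice and 7177, 6741, 5754 and 6213 CPM in aged mice (1.42 ± 0.14, adjusted p = 9.28e-06). Traf1, a receptor adaptor, was 12.8, 10.7 and 22.3 CPM in young mice and 107, 113, 120 and 107 CPM in aged mice (2.99 ± 0.23, adjusted p = 1.68e-06). Tnfaip2 rose by 2.31 and Lbp, which binds bacterial lipopolysaccharide, by 2.49.

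Serpina3n, an acute phase protease inhibitor, was 0.825, 0.974 and 1.24 CPM in young mice and 436, 98.8, 287 and 429 CPM in aged mice, with a log2 difference of 8.23. Across other types it was also higher in aged myoepithelial cells, at 122 to 411 CPM against 0 to 3.78 CPM in young ones. Leaving out cells with markers of another type kept 16 of the 17 NF-kB genes called higher, and leaving out cells with adipocyte UMIs kept 15.

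Promoter windows of RefSeq, which run from 250 bases before to 50 after a gene's start on GRCm38.p6, were searched on both strands for the NF-kB motif, which is GGG, any 2 bases and TTTCC. It was present in 5 of the 13 NF-kB genes with a window (Nfkb2, Nfkbia, Serpina3n, Tifa and Tnfaip3) and in 1.89% of 27025 genes with a window. None of the 8 called venular genes with a window held it. The windows of Nfkbia (chr12:55492598-55492897, minus strand) and Tnfaip3 (chr10:19015361-19015660, minus strand), a feedback inhibitor that rose from 24.3 to 42.2 CPM in young mice to 77.3 to 131 CPM in aged mice, are shown because the motif lies just before their start. Capitals mark the motif, which these windows carry on the opposite strand, and a match is a description of the letters, not evidence of binding.
Nfkbia: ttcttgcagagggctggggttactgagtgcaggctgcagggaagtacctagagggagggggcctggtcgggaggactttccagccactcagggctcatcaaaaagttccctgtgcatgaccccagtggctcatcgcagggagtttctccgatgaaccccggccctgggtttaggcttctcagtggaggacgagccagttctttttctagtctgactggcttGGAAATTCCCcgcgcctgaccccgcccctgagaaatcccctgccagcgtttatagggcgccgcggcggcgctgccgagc
Tnfaip3: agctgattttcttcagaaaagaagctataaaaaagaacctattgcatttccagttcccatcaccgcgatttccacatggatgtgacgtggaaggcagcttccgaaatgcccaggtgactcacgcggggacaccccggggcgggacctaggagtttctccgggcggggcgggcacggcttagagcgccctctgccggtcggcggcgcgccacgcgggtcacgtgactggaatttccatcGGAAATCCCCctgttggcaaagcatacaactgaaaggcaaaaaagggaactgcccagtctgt

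Genes for presentation of antigen to CD4 T cells rose in most members, with 5 of 6 tested class II genes higher. Cd74, the invariant chain that escorts class II molecules, was 489, 168 and 437 CPM in young mice and 9893, 656, 745 and 3544 CPM in aged mice. Aged A and Aged D stood well above Aged B and Aged C, and the log2 difference was 3.35 ± 0.82 (adjusted p = 0.0077), or 2.19 without Aged A. H2-Aa (3.77, and 2.57 without Aged A), H2-DMa (3.18, and 2.25) and H2-Ab1 (2.89, and 1.85) were likewise highest in Aged A and next in Aged D. Without the cells with adipocyte UMIs, 4 class II genes rose and 1 fell. H2-Eb1 was not called in all cells: it was 92.8, 29.7 and 96.8 CPM in young mice and 57.8, 2.23, 0.992 and 22.6 CPM in aged mice. Class II genes are also expressed by macrophages and dendritic cells. The UMIs of 6 immune genes (Ptprc, Lyz2, Csf1r, Cd3e, Cd3g and Nkg7), none of them a dendritic cell marker, made up 0.00124% to 0.00326% of young and 0.0000635% to 0.000629% of aged vascular endothelial UMIs, and the part of immune RNA in the class II counts was not tested.

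Class I genes showed 3 of 10 higher and 1 lower, beside 14.6% and 11.9% of all genes tested. H2-D1 rose from 2433, 2729 and 2781 CPM to 8526, 5142, 4825 and 6910 CPM (1.26 ± 0.19, adjusted p = 0.000285), and H2-K1 rose by 0.82. The non-classical genes moved in opposite directions: H2-T23 rose from 27.2, 54.5 and 69.5 CPM to 679, 297, 242 and 474 CPM, and H2-T22 fell from 164, 201 and 189 CPM to 142, 73.5, 60.5 and 107 CPM. H2-T23 was higher in every aged than in every young mouse in luminal cells, myoepithelial cells, fibroblasts and pericytes too. Class I and class II genes belong to families of close copies, so reads shared between copies could move counts among them.

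The interferon response did not rise with the NF-kB genes: 14 of 21 members fell and 0 rose, with a median log2 difference of -1.07. Ifit1, which binds viral RNA, was 416, 399 and 388 CPM in young mice and 129, 54.2, 85.3 and 46.0 CPM in aged mice, and fell by 2.39 (SE 0.26; adjusted p = 2.76e-05). Ifi27l2a was 199, 312 and 171 CPM in young mice and 3.62, 18.6, 12.9 and 6.04 CPM in aged mice, and fell by 4.40 (SE 0.34; adjusted p = 1.77e-06). Trim25 fell by 2.03 and Irf7 by 1.91, each with Aged A highest among the aged mice. Isg15 was 654, 825 and 921 CPM in young mice and 664, 432, 491 and 390 CPM in aged mice, with overlap, and its call was lost without Young C (-0.58).

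The interferon motif, which is GAAA, any 2 bases and GAAA, searched on both strands, was present in 5 of the 9 called members with a promoter window (Bst2, Ifit1, Ifit3, Isg15 and Slfn5) and in 3.99% of all genes with a window. The window of Ifit1 (chr19:34640639-34640938, plus strand) is shown because it holds the motif 2 times in close spacing. Capitals mark both matches, which read on the opposite strand.
Ifit1: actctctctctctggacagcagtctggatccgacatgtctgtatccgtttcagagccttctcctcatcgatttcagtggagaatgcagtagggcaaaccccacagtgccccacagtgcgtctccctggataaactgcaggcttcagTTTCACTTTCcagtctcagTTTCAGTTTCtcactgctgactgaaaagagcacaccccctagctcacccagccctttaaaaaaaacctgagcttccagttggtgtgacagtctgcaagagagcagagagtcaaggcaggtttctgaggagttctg

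The PPAR direct repeat, AGGNCA followed after any 1 base by AGGNCA and searched on both strands, was found in none of the 7 called lipid genes with a window and in 0.451% of all genes with a window. No match says only that these letters are not in these windows.

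Oxidative stress genes rose in 8 of 11 members and fell in 1. Hmox1, which degrades heme, was 64.7, 179 and 264 CPM in young mice and 1503, 2825, 3983 and 3938 CPM in aged mice (4.21 ± 0.45, adjusted p = 2.37e-05). Txnrd1 (2.24), Nqo1 (2.11) and Srxn1 (2.03), antioxidant enzymes regulated by the factor Nrf2, rose as well, and Txnip, the thioredoxin inhibitor, was the member that fell (-1.07). Hmox1 was also higher in aged fibroblasts (644 to 1081 CPM against 59.5 to 206 CPM) and in aged pericytes (577 to 1238 CPM against 62.3 to 274 CPM).

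Immediate early genes, which are known to rise during dissociation of tissue, gave 2 of 14 higher and 3 lower. Over all genes tested 14.6% were higher and 11.9% lower. Fos was not called (0.12, adjusted p = 0.68). Fosb fell by 1.53 and Egr1 by 1.13, and Atf3 rose by 0.77. Of 8 tested genes of cell cycle arrest 1 fell, against 11.9% of all genes tested. This was Cdkn1c, at 213, 207 and 185 CPM in young mice and 38.6, 56.5, 61.5 and 52.8 CPM in aged mice. Cdkn1a, the p53 target often read as a sign of senescence, was 1583, 1681 and 1360 CPM in young mice and 1551, 1122, 1678 and 1765 CPM in aged mice, and did not pass the test (-0.01, adjusted p = 0.964). Cdkn2a had 0 UMIs in all young and 3 UMIs in all aged vascular endothelial cells together, which is too few for a comparison. The share of cells in S or G2M phase, as the authors deposited it, was 58.7% ± 5.53 in young and 51.9% ± 2.90 in aged mice and overlapped (exact permutation p = 0.143). The share in G2M phase alone was 15.2%, 14.8% and 17.2% in young mice and 7.60%, 6.32%, 10.4% and 6.45% in aged mice. These values did not overlap (exact permutation p = 0.0286), and the adjusted p over the 2 phase shares was 0.0571.

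Ribosomal protein genes rose nearly as a block, with 79 of 84 tested members higher, 0 lower and a median log2 difference of 0.99 in all vascular endothelial cells. Their share of all UMIs was 18.9%, 18.6% and 19.3% in young mice and 25.7%, 27.7%, 29.4% and 30.4% in aged mice (exact two-sided permutation p = 0.0286, adjusted p = 0.0429 over 9 shares). Rpl21 rose by 1.41 and Rpl10 by 1.40. The share of ribosomal protein UMIs overlapped between the age groups in fibroblasts, at 21.7% to 23.9% and 22.9% to 31.8%, and in pericytes, at 18.3% to 20.6% and 19.1% to 25.6%. By gene the direction was shared. In pericytes 79 of 82 lay above 0, with a median log2 difference of 0.49 and 16 called higher. In fibroblasts 78 of 84 lay above 0, with a median of 0.34 and 0 called. The shares over all genes in the fits of pericytes alone and fibroblasts alone are not given here. The mitochondrially encoded share was lower in aged mice, at 2.42% ± 0.0803 against 3.13% ± 0.0321 (p = 0.0286 in the same exact test). Both shares are of unscaled UMIs, whereas the log2 differences of single genes follow TMM scaling, which shifts them upward. Shares and log2 differences are thus not on the same scale.

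Of 84 tested nuclear genes of oxidative phosphorylation, 10 fell and 1, Cox7a2l, rose, beside 11.9% lower and 14.6% higher over all genes tested. The count that fell thus lay near the background. Ndufa4l2 fell by 2.57, Atp5g3 by 0.96 and Ndufa3 by 0.93, while Cox5b was not called (-0.34). Of 13 mitochondrially encoded genes, 3 rose (mt-Nd5, mt-Atp8 and mt-Nd4l) and 0 fell. Many ribosomal protein genes have near-identical processed copies elsewhere in the genome, so their counts are uncertain.

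**Figure D3:**
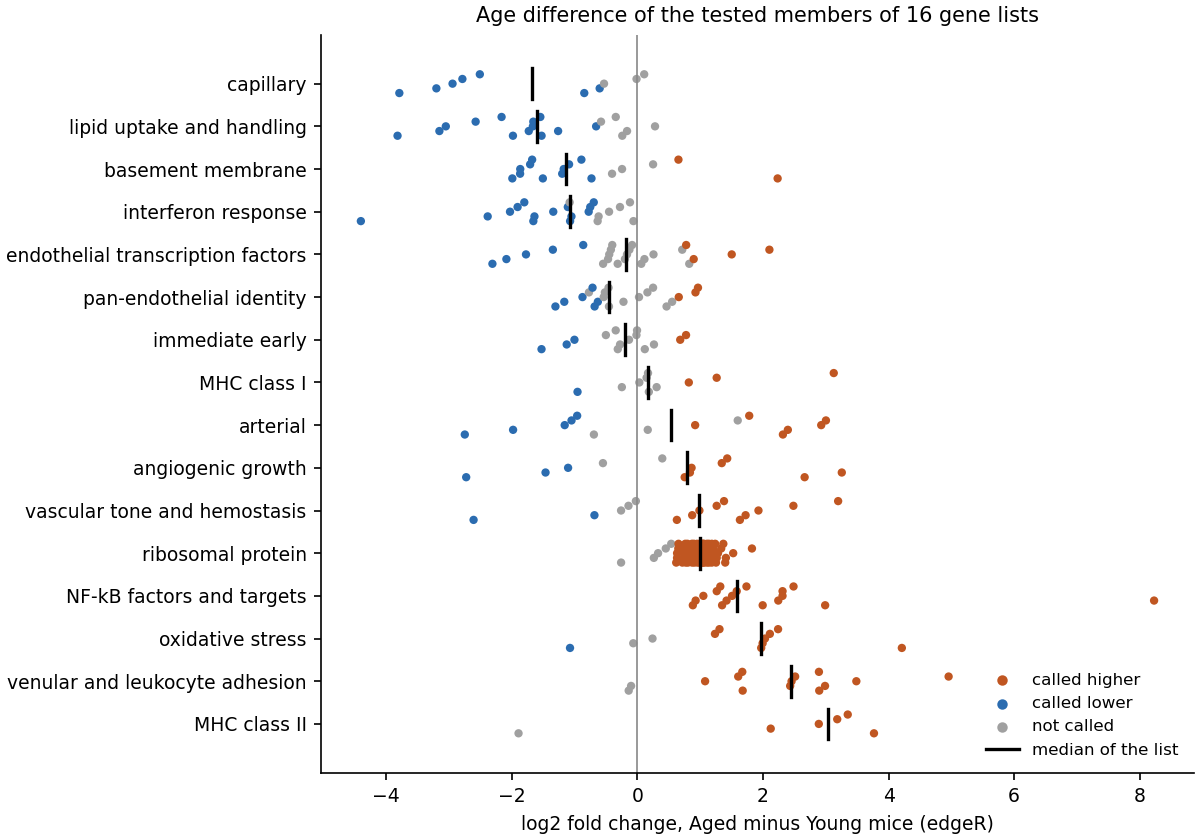
Log2 difference between aged and young mice for the tested members of 16 gene lists in vascular endothelial cells; orange points were called higher, blue points lower, grey points neither, and black lines are list medians. Medians run from -1.68 for capillary genes to 3.04 for class II genes, and the arterial and angiogenic lists hold called members on both sides of 0.

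The genes with the largest differences were at or near 0 in 1 age group. Csn1s1, a casein, had 0 UMIs in young and 301 UMIs in aged vascular endothelial cells, at least 91.4-fold higher when 3 counts over the whole young group are taken as the floor. Serpina1b (0 and 225 UMIs, at least 68.4-fold), the antisense gene BC023719 (0 and 193 UMIs, at least 58.6-fold) and Ifi202b (0 and 148 UMIs, at least 44.96-fold) were likewise detected only in aged cells. Gm10260 was 5.77, 4.38 and 1.24 CPM in young mice and 2584, 1978, 1590 and 2561 CPM in aged mice.

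Several of these were seen in other cell types too. Gm10260 was at most 12.7 CPM in young and at least 1323 CPM in aged luminal cells, myoepithelial cells, fibroblasts and pericytes. BC023719 was at most 0.75 CPM in those young types and at least 10.2 CPM in the aged ones. Whether young and aged libraries were counted with the same gene annotation, and whether the mixed strain background had the same makeup in both groups, is not given in the sources used here. This limits what the values of Gm10260, BC023719 and Ifi202b mean, and also those of genes with close copies or strain variants such as H2-T23, H2-T22 and the ribosomal protein genes. Csn1s1 reached 18.5 to 5158 CPM in aged alveolar luminal cells, against 0.41 to 1.80 CPM in young ones, and its part in the vascular endothelial counts was not tested. By contrast Serpina1b was at most 1.36 CPM in aged luminal cells, at 0 CPM in myoepithelial cells and up to 23.01 and 42.9 CPM in aged fibroblasts and pericytes.

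In the other direction, Nxpe4 had 104 UMIs in young and 0 in aged vascular endothelial cells (at least 38.04-fold lower), and was 19.6 to 27.4 CPM in young and 0 CPM in aged pericytes. Pck1 (80 and 0 UMIs, at least 29.3-fold lower), Adipoq (89 and 0, at least 32.6-fold lower) and Cidec (142 and 0, at least 51.9-fold lower) are genes of fat cells. Cfd, the adipocyte protease adipsin, was 211, 402 and 164 CPM in young mice and 2.41, 0, 1.98 and 2.26 CPM in aged mice. Retn had 239 young and 2 aged UMIs, a ratio of 131 with an exact 95% counting interval of 35.9 to 1089. These adipocyte genes were present at lower levels in other young types as well, with Cfd at 9.04 to 42.5 CPM in young pericytes and 0 CPM in aged ones. Fat cells are not among the 13 named types, and the part of free RNA in these counts was not tested.

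Markers of further cell types also fell. All 3 tested fibroblast markers (Dcn, Col1a1 and Col3a1) fell, with Dcn at 119, 31.6 and 200 CPM in young mice and 57.8, 18.6, 12.9 and 26.4 CPM in aged mice, and 2 of 3 tested pericyte markers fell, of which Rgs5 lost its call without Young C (-1.38). The summed share of 6 pericyte markers was 0.0118%, 0.0147% and 0.0408% in young and 0.00105% to 0.00802% in aged mice, and that of 6 fibroblast markers 0.00664% to 0.0339% and 0.00152% to 0.00667%. The epithelial markers overlapped, at 0.0483% to 0.0891% and 0.0379% to 0.0665%, with Krt14 and Csn3 higher and Wfdc18 lower. Flt4 of the lymphatic list fell (-1.52, lost without Young B), Prox1 and the rest were too low to test, and Lyz2 of the immune list had 65 young and 2 aged UMIs.

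The age difference was then asked for within cells selected by the UMIs of 1 gene set. In aged mice the UMIs of the capillary and venular sets had Spearman correlations of only -0.24 to 0.04. Whether the selected aged cells are of the same vessel type as the selected young cells was not tested. Capillary-set cells held at least 2 UMIs of the capillary set and at most 1 of the venular set (630 cells, 11 to 21 in each aged mouse), venular-set cells the reverse (546 cells, 19 to 50 in each young mouse), and the genes of the sets were left out of these fits. In young mice, venular-set cells differed from capillary-set cells in many of the same genes: on log2(CPM + 10), Lpl differed by -3.58, -3.33 and -2.57 in Young A, B and C. Vcam1 was higher by 4.27, 4.62 and 2.19 and Bmp4 by 3.36, 2.81 and 3.03. Ifit1 differed little, at -0.01, -0.07 and 0.48, and Serpina3n at 0.39, 0.00 and 0.00.

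In venular-set cells, 212 of 4056 genes tested rose (5.23%) and 116 fell (2.86%) with age. Sele (log2 difference 1.28, adjusted p = 0.00434), Vcam1 (1.22, adjusted p = 0.0285), Cytl1 (3.14, adjusted p = 0.00387) and Procr (1.91, adjusted p = 0.000135) were higher in aged cells of this set, each by less than in all cells. Hmox1 (4.82, adjusted p = 0.000135) and Serpina3n (7.07, adjusted p = 0.000222) were higher too. Lpl (-4.40, adjusted p = 0.00241), Ifit1 (-2.46, adjusted p = 0.00261) and Ifi27l2a (-3.13, adjusted p = 0.00614) were lower.

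By list, 5 of 10 tested venular genes, 8 of 17 NF-kB genes, 6 of 11 oxidative stress genes and 46 of 83 ribosomal protein genes rose in venular-set cells, and 8 of 18 interferon genes and 6 of 15 lipid genes fell. Of 6 class II genes 0 rose and 1, H2-Eb1, fell in these cells, with Cd74 at 1.80 (adjusted p = 0.141) and H2-Aa at 2.39 (adjusted p = 0.0575). The counts rest on few young cells: leaving out each mouse gave 94 to 210 genes higher and 49 to 130 lower, and 94 and 61 without Young B. The values for Nfkbia (0.40, adjusted p = 0.184), Kdr (-0.22, adjusted p = 0.669) and Sox17 (-0.36, adjusted p = 0.539) did not pass the test in venular-set cells.

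In capillary-set cells, 67 of 1384 genes tested rose (4.84%) and 53 fell (3.83%). Lpl (-1.40, adjusted p = 0.00516), Angptl4 (-1.18, adjusted p = 0.0222) and Tcf15 (-0.75, adjusted p = 0.047) were lower in aged cells of this set. Kdr (-1.56, adjusted p = 0.0101), Col4a1 (-1.22, adjusted p = 0.0483), Col4a2 (-1.75, adjusted p = 0.0108) and Ifi27l2a (-3.22, adjusted p = 0.00154) were lower as well. Nfkbia (0.98, adjusted p = 0.025), Hmox1 (2.75, adjusted p = 0.0323) and H2-T23 (3.04, adjusted p = 0.00029) were higher. By list, 5 of 14 tested lipid genes, 4 of 7 basement membrane genes and 3 of 11 interferon genes fell, and 2 of 3 NF-kB genes and 1 of 6 oxidative stress genes rose. Ribosomal protein genes gave 2 of 82 higher (Rpl10 and Rpl21) with a median log2 difference of 0.36, a smaller share than the 4.84% of all genes. Leaving out each mouse gave 31 to 115 genes higher and 18 to 72 lower in this set, with 31 and 22 without Young A.

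**Figure D4:**
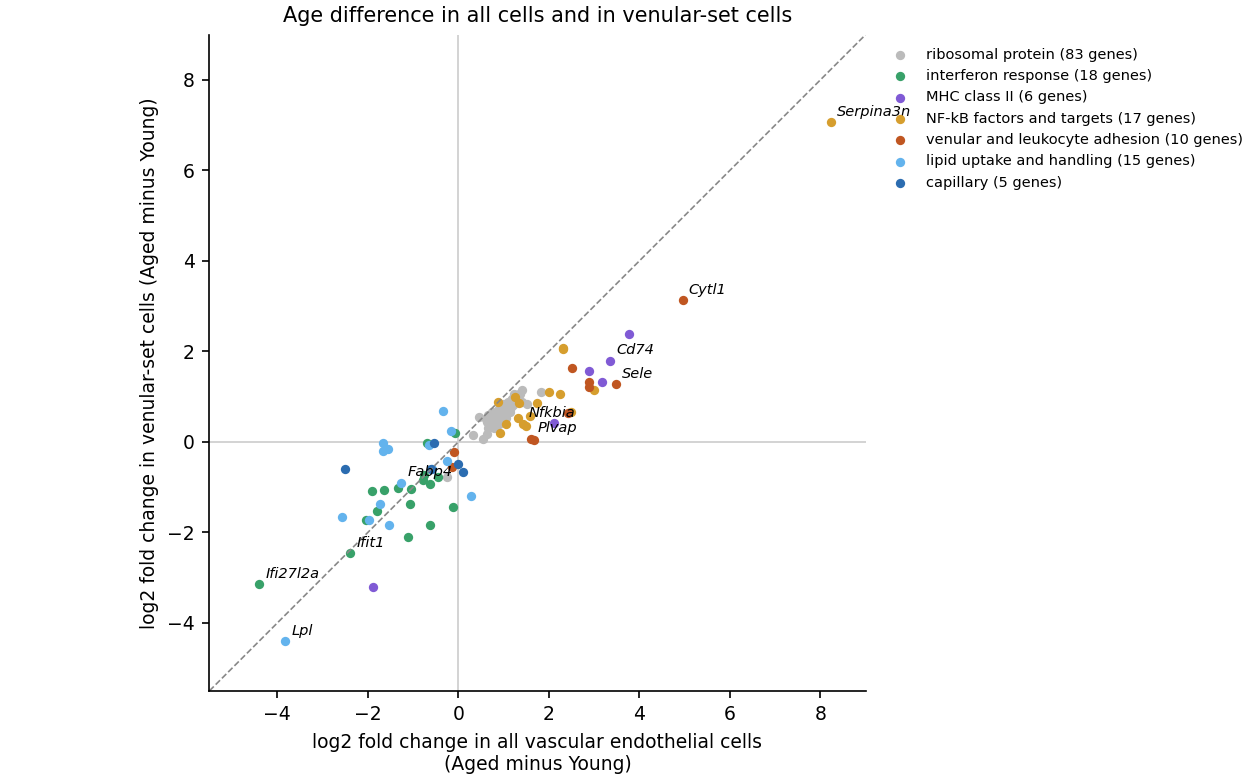
Log2 difference between aged and young mice in all vascular endothelial cells (x axis) and in venular-set cells only (y axis), for members of 7 gene lists tested in both; the cells on the y axis are part of those on the x axis, and the dashed line marks equal values. Ifit1 and Lpl lie near the line, and Sele and Cytl1 lie below it, with 1.28 against 3.49 and 3.14 against 4.96.

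Pericytes share the vessel wall, so the age differences of the cell types were tested against each other with the mouse as a block. Of 7204 genes tested, the age difference was higher in vascular endothelial cells for 476 (6.61%) and lower for 217 (3.01%). Of the venular list 11 of 14 were higher, with Vcam1 at a difference of 4.59 (adjusted p = 2.17e-08), Ackr1 at 3.67 (adjusted p = 3.32e-07) and Sele at 3.85 (adjusted p = 3.98e-06). In pericytes themselves Ackr1 had a log2 difference of -0.63 and Vcam1 of -1.70. The cells labelled pericytes carried endothelial RNA, and all 19 pan-endothelial genes tested in both types lay below 0 in them. These genes had a median log2 difference of -0.62 in pericytes, with 4 called lower, against -0.46 in vascular endothelial cells. The part of this endothelial RNA in the differences against pericytes was not tested. The share of all genes below 0 or called in pericytes themselves is not given here.

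Of 18 lipid genes 9 were lower relative to pericytes, with Lpl at -4.03 (adjusted p = 1.02e-07) and Angptl4 at -2.83 (adjusted p = 3.21e-07), and in pericytes Lpl was at 0.18. In pericytes themselves 3 of 15 lipid genes fell (Cd36, Fabp4 and Mgll), 1 rose (Pnpla2) and 10 lay below 0, with log2 differences of -0.97 for Cd36, -0.83 for Fabp4 and -0.79 for Gpihbp1, which did not pass the test (adjusted p = 0.0932). Of the NF-kB list 13 of 17 were higher, among them Nfkbia (1.45, adjusted p = 4.85e-06). The interferon list behaved differently, with 1 of 21 higher and 1 lower: in pericytes themselves 12 of 14 members tested in both types fell, with a median log2 difference of -1.51 against -1.21 for the same genes in vascular endothelial cells. The shares over all genes in the fit of pericytes alone are not given here, so the counts in pericytes themselves stand without a background. Counts of calls against pericytes were 188 higher and 107 lower without Young A, and 306 and 131 without Young B.

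**Figure D5:**
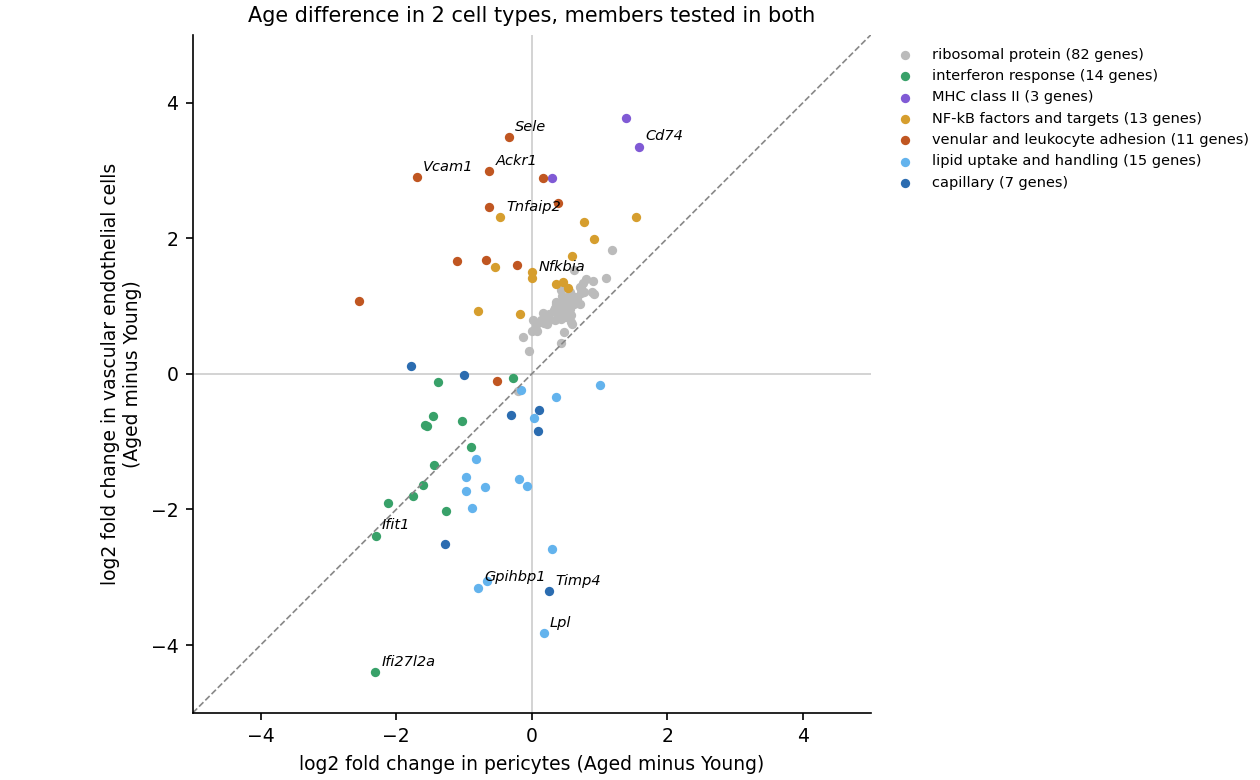
Log2 difference between aged and young mice in pericytes (x axis) and in vascular endothelial cells (y axis) for members of 7 gene lists tested in both types; the dashed line marks equal values. Venular genes such as Sele lie high on the y axis and near or below 0 on the x axis, Lpl lies near -3.82 against 0.18, and interferon genes lie below 0 on both axes. The cells labelled pericytes carried endothelial RNA, which was lower in aged mice.

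Against fibroblasts, for which the same vascular endothelial sums were used, the age difference was higher in vascular endothelial cells for 317 of 8598 genes tested (3.69%) and lower for 172 (2%). All 5 class II genes called higher with age in vascular endothelial cells were also higher relative to fibroblasts, with Cd74 at 6.45 (adjusted p = 3.31e-08) and H2-Aa at 5.92 (adjusted p = 7.73e-07). Part of this is a fall in fibroblasts, where Cd74 averaged 161 CPM in young and 17.5 CPM in aged mice. Of 4 class II genes tested in both types, 2 fell and 0 rose in fibroblasts, with a median log2 difference of -2.17. Mean Cd74 was lower in aged alveolar luminal cells (24.8 against 106 CPM) and myoepithelial cells (54.1 against 198 CPM) as well. Relative to fibroblasts, Procr (3.72, adjusted p = 3.7e-06) and Nfkbia (1.35, adjusted p = 0.000112) were higher, and Col4a1 (-1.23, adjusted p = 0.0162) was lower. The lipid list was split, with 4 of 18 lower (Lpl, Plin2, Angptl4 and Pltp) and 3 higher (Cd36, Fabp4 and Rbp7). Lpl was at -2.87 (adjusted p = 0.000112), whereas Fabp4 was at 2.23 and Cd36 at 2.65. In fibroblasts the mean level of Fabp4 was 1318 CPM in young and 98.1 CPM in aged mice, and that of Cd36 was 113 and 3.58 CPM. Fabp4 was also lower in aged alveolar luminal cells, at 35.6 against 339 CPM. Endothelial RNA in fibroblasts fell as well, with Pecam1 at 18.5 CPM in young and 0.43 CPM in aged mice and Cdh5 at 22.1 and 0 CPM. Its part in the differences against fibroblasts was not tested. H2-T23 (0.72, adjusted p = 0.323) and Gm10260 (0.85, adjusted p = 0.228) did not pass the test of the difference against fibroblasts. Aged mice had 15 to 121 fibroblasts each, and the genes called lower numbered 89 without Aged A and 99 without Aged B.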

How the data were processed

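Single-cell RNA of mammary glands of 3 young and 4 aged mice was used. The authors made 10x Chromium 3′ v2 libraries, aligned reads with Cell Ranger 2.0 to mm10, filtered cells on UMIs, genes and mitochondrial share, and named cell types from Seurat clusters. They deposited the UMI counts of every cell without normalization, and a table of its mouse, cell type, mitochondrial fraction, and cell cycle score and phase. The authors limited genes per cell and estimated doublets with Scrublet and DoubletFinder. No cell was removed here and no doublet caller was run.

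The 27998 rows of the matrix were read and 56 symbols listed on 2 rows were summed. Counts of the vascular endothelial cells were summed per mouse. After filterByExpr and TMM scaling, edgeR 4.0.16 in R 4.3.3 gave the quasi-likelihood test. The TMM factors were 1.13 to 1.20 in young and 0.850 to 0.951 in aged mice, which shifts all log2 differences upward relative to unscaled CPM. A gene was called, "rose" or "fell", at a Benjamini-Hochberg adjusted p under 0.05 over all genes tested and at least 1.5-fold. These thresholds match the grouped criterion of the study, which also asked for a smaller fold in every pair of a young and an aged mouse and for calls by 2 methods on cells. Differences between cell types were an interaction with the mouse as a block, in edgeR. Shares were tested by exact permutation (two-sided, difference of the means) over all 35 divisions of the mice. Differences between set cells of young mice used log2 of CPM plus 10 and had no test. Capillary-set and venular-set fits needed 10 cells in each mouse. Intervals and floors (3 counts) cover counting error only, and p-values measure the spread between mice.

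The cells, gene lists and sets were chosen with earlier results of these data known. Named were the 4 markers, the first gene of each list, up to 4 further called genes of each list with the largest change, the 5 called genes in each direction with the largest change and no overlap, and for pericytes and fibroblasts the 5 list members in each direction with the largest called difference. Other members named to account for a count, and Tnfaip3, were chosen after their values were seen. Mice that share a letter are different animals, and the correlations of same-letter deviations were -0.07, -0.08 and 0.01.

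On simulated data, the fit of vascular endothelial cells recovered 55 of 93 genes changed 2-fold and 91 of 91 changed 4-fold, with 6 false calls among 7812 genes. The simulation gave every gene the same dispersion. It changed far fewer genes than were called here, equally in both directions. Its recovery and false calls therefore do not carry over to genes with a wide spread between mice. Alternatives comprised DESeq2 1.42.0, RLE factors, no filter on low counts, leaving out ribosomal protein and mitochondrial genes, no fold minimum, a replicate block, counts thinned to 727600 UMIs per mouse, cells without markers of other types, other UMI minimums and each mouse left out. Leaving out cells with adipocyte UMIs was added after seeing the data, and it removed a far larger share of young than of aged cells.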

Additional observations from a re-analysis of the deposited data

Results flagged for a closer look

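In 120 groups of 4 aged mice, 4 values of named genes stood apart from the other mice of their group by Dixon's criterion, where chance alone gives about 1 in 20 groups. Pgf was highest in Aged B at 21.5 CPM, and Trim25 was highest in Aged A at 34.95 CPM. Lbp was lowest in Aged C at 102 CPM, and Lyz2, an immune gene, was highest in Aged A at 2.41 CPM.

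A further 20 genes stood out because their age difference in vascular endothelial cells differed from that in another cell type in a test of the difference itself. Relative to pericytes, the age difference was higher for Vcam1 (4.59 on the log2 scale), Bmp4 (4.54), Bmx (4.16), Sele (3.85) and Ackr1 (3.67). It was lower for Pgf (-4.38), Lpl (-4.03), Kcna5 (-3.78), Timp4 (-3.48) and Angptl4 (-2.83). Pericytes carried endothelial RNA that was lower in aged mice, and its part in these differences was not tested.

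Relative to fibroblasts, it was higher for Cytl1 (10.0), Cd74 (6.45), H2-Aa (5.92), Serpina3n (5.77) and H2-DMa (4.70). It was lower for the fibroblast markers Col1a1 (-4.74), Col1a2 (-3.77) and Pdgfra (-3.68), for Unc5b (-4.43) and for the pericyte gene Kcnj8 (-3.76). Cytl1, Unc5b and Kcnj8 were too low in fibroblasts for a fit of their own, and Col1a1 had 86 young and 2 aged UMIs in vascular endothelial cells. Cd74 was itself lower in aged fibroblasts, at a mean of 17.5 CPM against 161 CPM in young ones. Endothelial RNA in fibroblasts was also lower in aged mice, and its part in these differences was not tested.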

How the results depend on the processing

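The genes called with age in vascular endothelial cells (1151 higher, 936 lower) numbered 1041 and 634 with DESeq2, and 917 to 1189 and 710 to 925 when each mouse was left out. With a replicate block, although the letters do not pair mice, they numbered 926 and 621. Without cells with adipocyte UMIs they numbered 700 and 536 (the cause was not tested), and 1125 of these were calls of the first fit in the same direction. Of 1523 values of 106 named genes under these settings, 1488 kept direction and side of the thresholds and 7 changed sign, all in genes without a call: Fos without Aged B, and Cdkn1a with DESeq2 (0.0141), RLE factors (0.0143), without adipocyte UMIs (0.250), and without Young A, Young B or Aged B. With each mouse left out, Fos ran from -0.0509 to 0.241 and Cdkn1a from -0.0895 to 0.135.

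Against pericytes, leaving out each mouse gave 188 to 492 genes higher and 107 to 231 lower. Against fibroblasts it gave 280 to 387 higher and 89 to 143 lower. Without a filter on low counts 511 genes were higher against fibroblasts, and without ribosomal protein and mitochondrial genes the split was 408 higher and 120 lower instead of 317 and 172. In capillary-set cells, no filter gave 160 higher and 229 lower, a set minimum of 1 UMI 81 lower, a replicate block 31 higher and 16 lower, and leaving out each mouse 31 to 115 higher and 18 to 72 lower. In venular-set cells, no filter gave 453 higher, a set minimum of 1 UMI 123 higher and 61 lower, and leaving out each mouse 94 to 210 higher and 49 to 130 lower. The causes were not tested.

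With a mouse left out, the exact permutation test cannot reach 0.05, and the differences ran from -61.2 to -57.8 points for the capillary share, 54.0 to 57.0 for the venular share, 8.71 to 10.3 for ribosomal protein UMIs and -0.757 to -0.697 for mitochondrial UMIs. The set fits tested 1384 and 4056 genes, against 7861 in all cells, and 3272 to 3312 genes in capillary-set cells when an aged mouse was left out.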
